A study of Homo sapiens with 24 samples.

Results

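The comparison asked, gene by gene, whether dexamethasone (dex), a synthetic glucocorticoid, had a different effect on A549 cells at 11 hours than at 5 hours. A549 is an established human lung adenocarcinoma line of epithelial origin. The effect at each time was the log2 difference between cells given 100 nM dex and cells given the vehicle ethanol (EtOH) at 0.02% of the medium by volume, and the effect at 5 hours was subtracted from the effect at 11 hours. This interaction used 8 of the 24 poly-A RNA-seq libraries in the series, with 2 in each of 4 groups (EtOH at 5 hours, dex at 5 hours, EtOH at 11 hours and dex at 11 hours). The other 16 libraries held the same pair of arms at 1, 3, 7 and 9 hours and were used as a separate set. All groups were the same unmodified line in F-12K medium with serum, so every value below describes 1 cancer line in culture. The labels call the 2 libraries of a group biological replicates without saying what was separate, so p-values measure the spread between these libraries, which may be partly technical. That spread was estimated for the 4 groups together, so neither p-values nor SEs show the spread of a single group. Total counts ran from 7813353 to 11973829 per library, and 14567 genes had enough counts to be tested.

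Dex enters the cell, binds the glucocorticoid receptor (GR) and sends it into the nucleus, where it raises genes beside its binding sites and lowers others, among them many inflammatory genes. Glucocorticoids also slow the division of many cell types, and genes needed for DNA replication are switched on together at the end of G1 by E2F transcription factors. A lasting hormone is known to give several shapes of response, from genes that stay raised to genes that return to their starting level while the hormone is still present.

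The dex effect differed between 11 and 5 hours for 137 genes, or 0.94% of those tested (edgeR quasi-likelihood test, Benjamini-Hochberg adjusted p at most 0.1, the threshold for every call below). Of these, 110 genes (0.755%) had a higher log2 effect at 11 hours and 27 genes (0.185%) a lower one, while the median interaction over all genes tested was 0.02. The dex effect itself passed the test for 2802 genes at 5 hours (19.2%; 1372 higher, 9.42%, and 1430 lower, 9.82%) and for 1902 genes at 11 hours (13.1%; 1162 higher, 7.98%, and 740 lower, 5.08%). Between the 2 dex groups 691 genes changed (4.74%; 469 higher at 11 hours, 3.22%, and 222 lower, 1.52%). Between the 2 EtOH groups 0 genes (0%) passed in edgeR and 0 in DESeq2, with 339 at an unadjusted p under 0.05. Of the 137 genes, 136 also changed between the dex groups with the same sign, and 136 moved further in dex than in EtOH. The interaction had the same sign in the libraries numbered 1 and in those numbered 2 for all 137. These counts describe genes that the interaction chose from the same libraries, so they are no separate support for the calls. The smallest interaction called was 0.63 and the median was 0.99 in absolute log2 units.

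The 137 genes were sorted by their effects at the 2 times. In 108 genes the effect was called at 5 hours, the interaction ran against it and there was no call on the opposite side at 11 hours (rebounding), in 6 it was called in opposite directions at the 2 times (reversing), in 9 it was called at both times and larger at 11 hours (deepening), and in 14 it was called at 11 hours alone and larger there (late). Most of the list was therefore a loss of effect: 93 genes lowered by dex at 5 hours returned towards the EtOH level by 11 hours, and 15 raised genes did so. In each of the 137 genes the dex libraries at 5 hours and those at 11 hours did not overlap. The interaction that chose the genes used these same libraries, so the lack of overlap is no separate support. The share over all genes tested was not counted.

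**Figure D1:**
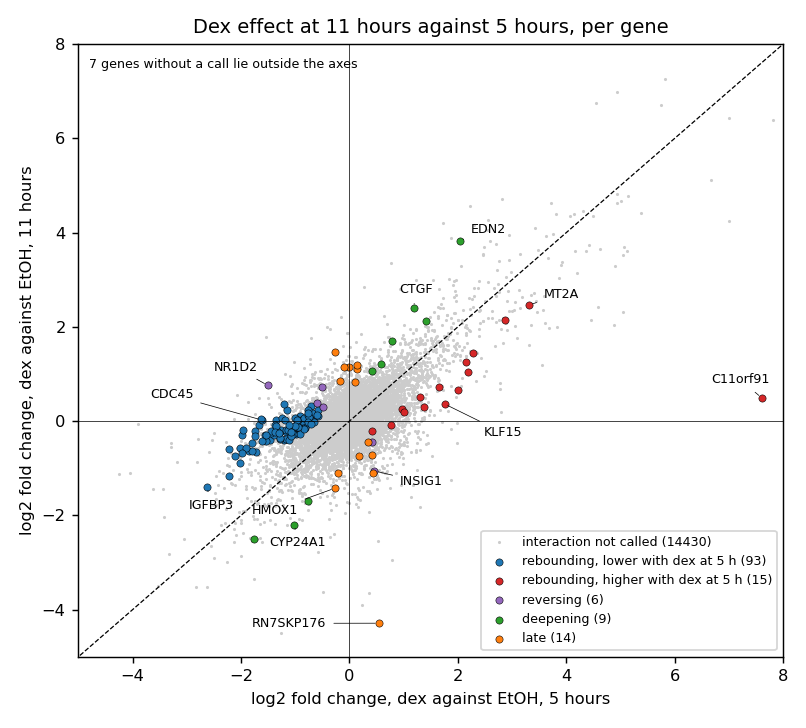
Log2 effect of dex against EtOH at 5 hours (horizontal) and at 11 hours (vertical), 1 point a gene; 14430 genes without a called difference are grey, rebounding genes lower or higher at 5 hours are blue (93) or red (15), reversing genes purple (6), deepening genes green (9) and late genes orange (14), and the dashed line marks equal effects. The blue points lie left of the centre, with a median of -0.15 on the vertical axis and 17 genes still called there; 7 grey genes lie outside the axes, and the 5-hour fold of the red point furthest right (C11orf91) depends on the prior count because both EtOH libraries had 0 counts.

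Before the genes are described, 2 properties of the libraries bear on all of them. The first is the spread of the dex libraries at 11 hours: over 8972 genes the SD of the log2 ratio of the 2 replicates was 0.342 there, against 0.178 for EtOH at 11 hours, 0.194 for EtOH at 5 hours and 0.215 for dex at 5 hours. The 4 groups shared an estimate of the spread in the fit. The SEs and p-values of the effect at 11 hours therefore do not carry the full spread of its dex libraries. Without the first dex library of 11 hours 1454 genes were called, and without the second 570, with all 137 among them each time. Leaving out a library of another group shortened the list, to 26 and 27 genes without dex 5-hour replicate 1 and 2, 37 and 22 without EtOH 5-hour replicate 1 and 2, and 10 and 5 without EtOH 11-hour replicate 1 and 2. NR1D2, IGFBP3, DTL and ZNF367 passed in all 8 of these fits.

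The second property is the likeness of the time points. Over 9015 genes with a mean above 10 CPM (counts per library total, scaled by TMM), the dex effect at 3 hours had a Pearson r of 0.81 with that at 11 hours, 0.76 with that at 7 hours, 0.65 with that at 5 hours and 0.57 with that at 9 hours, each time point having its own EtOH libraries. These values describe likeness across genes, which are not independent replicates. The effects at 5 and 7 hours had an r of 0.90, and those at 5 and 11 hours 0.78. For 134 of the 137 genes (97.8%) the effect at 3 hours lay nearer to that at 11 hours than to that at 5 hours, against 8763 of 14503 genes tested in both sets of libraries (60.4%). The times are used here as the labels' duration gives them, a treatment note in the labels states 1 hour for every library, and whether the durations of these libraries are right was not tested. The EtOH groups of 5 and 11 hours, with 0 genes called between them, gave no check of it.

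The other libraries also gave a reading that the interaction did not use. The effect at 9 hours minus that at 7 hours had the sign of the interaction in 114 of the 137 genes (83.2%), against 7148 of 14503 (49.3%) of all genes. It did so in 91 of the 110 genes with a higher effect at 11 hours (82.7%) and in 23 of the 27 with a lower one (85.2%). Genes chosen at 7 hours, in libraries independent of the interaction followed in part: the 1566 genes lowered there had a median effect of -0.61 at 5 hours and -0.34 at 11 hours, and 70.7% had a smaller effect at 11 hours. The 1694 genes raised at 7 hours had medians of 0.56 and 0.50, with 55.8% smaller at 11 hours. Genes chosen at 3 hours had medians that were larger at 11 hours, 0.73 against 0.64 for 1109 raised genes and -0.45 against -0.39 for 800 lowered ones.

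**Figure D2:**
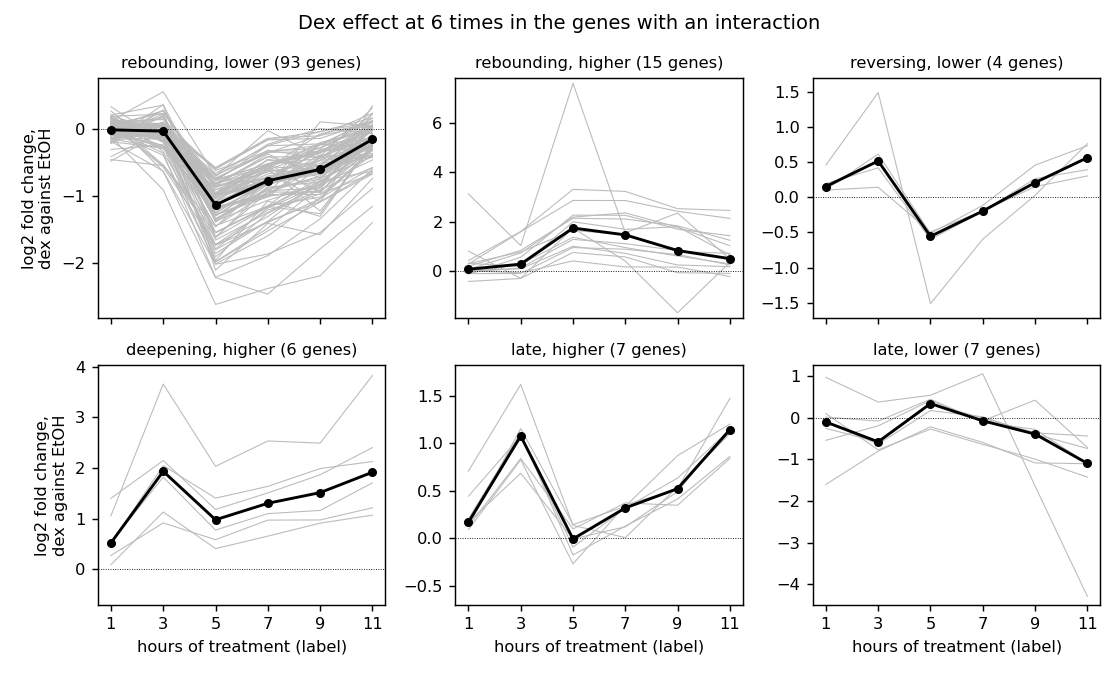
Log2 dex effect (vertical) against the labelled time in hours, from 1 to 11 (horizontal), for 6 of the groups of genes, 1 grey line a gene and the median in black; the 3 deepening genes lower with dex and the 2 reversing genes higher at 5 hours are not drawn. The median of the 93 rebounding genes lowered by dex was -0.03 at 3 hours, -1.13 at 5 hours and -0.15 at 11 hours, and that of the deepening genes raised by dex was 1.94 at 3 hours, 0.98 at 5 hours and 1.92 at 11 hours.

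The list of S phase genes, which holds many genes of DNA replication, had the most called members of the 18 lists, 23 of the 137 genes. On that list 42 of 43 members were tested and 41 of them were lower with dex at 5 hours, against 9 lower and 1 higher at 11 hours. Of all genes tested, 9.82% were lower at 5 hours, and 5.08% were lower and 7.98% higher at 11 hours. The interaction was called for 23 of the 42, all higher (0.755% of all genes), and was above 0 in all 42 (7637 of all 14567 genes). The median effect of the 42 members was -1.14 at 5 hours and -0.23 at 11 hours, with a median interaction of 0.85 beside 0.02 for all genes tested. Between the dex groups 39 members rose, as 3.22% of all genes did. In the other libraries the median was -0.06 at 3 hours, -0.80 at 7 hours and -0.54 at 9 hours. In bulk RNA fewer cells in S phase and less RNA of these genes in each cell cannot be told apart.

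CDC45 (chromosome 22, 19479459 to 19520612 in GRCh38, as are the gene positions below) encodes a part of the replicative helicase. It had 50.5 and 44.3 CPM in the EtOH libraries at 5 hours and 15.4 and 15.5 with dex. At 11 hours it had 41.6 and 33.0 CPM in EtOH and 40.9 and 34.7 with dex. The dex libraries were below the EtOH libraries at 5 hours without overlap, and within their range at 11 hours. The log2 effect was -1.61 ± 0.16 (SE, as for every ± on log2 values, n = 2 a group; adjusted p = 3.54e-06) at 5 hours and 0.02 ± 0.15 (adjusted p = 0.964) at 11 hours, and the interaction was 1.64 ± 0.22 (adjusted p = 0.00468). In the other libraries its effect was 0.20 at 3 hours, -0.94 at 7 hours and -0.70 at 9 hours.

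The parts of the replication machinery were described by complex, with the complexes chosen after the values had been seen. Counts of called members are therefore only a description of them. Of all genes tested, 0.755% had the interaction called higher, 9.82% were lower with dex at 5 hours and 5.08% at 11 hours. The 6 subunits of the MCM helicase, the ring that unwinds DNA at the fork, were all lower with dex at 5 hours (-1.30 to -1.01) and none was called at 11 hours (-0.25 to 0.24). All 6 had the interaction called, between 0.90 and 1.40. MCM6 (chromosome 2, 135839626 to 135876426) had 246 and 259.7 CPM in EtOH and 102 and 104 with dex at 5 hours, then 244 and 229.9 in EtOH and 207 and 192 with dex at 11 hours. Its dex libraries were still below both EtOH libraries at 11 hours, though by less, with an interaction of 1.05 ± 0.15 (adjusted p = 0.00679). MCM4 showed the spread of the 11-hour dex libraries, with 356 and 524 CPM on either side of the EtOH values of 427 and 411, after 188 and 193 with dex and 450.5 and 449.6 without at 5 hours. Its interaction was 1.31 ± 0.20 (adjusted p = 0.0106), and 1.55 or 1.01 without the first or second dex library of 11 hours.

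Among the loading and firing factors, CDC6 and CDT1, which load MCM rings onto DNA, GMNN (geminin, the inhibitor of CDT1), MCM10 and CDC45 were all 5 lower at 5 hours, with effects from -1.97 to -0.82, and all 5 had the interaction called (0.88 to 1.78). Of these, 2 were still lower at 11 hours, CDC6 at -0.64 (adjusted p = 0.00187) and MCM10 at -0.46 (adjusted p = 0.0189). CDT1 (chromosome 16, 88803213 to 88809258) had 16 and 16 CPM in EtOH and 3.17 and 5.02 with dex at 5 hours, and 13.5 and 10.6 in EtOH and 9.25 and 11.8 with dex at 11 hours. It is a gene of low count whose arms were apart at 5 hours and overlapped at 11 hours, with an interaction of 1.78 ± 0.33 (adjusted p = 0.0261). Of the 4 subunits of GINS, which completes the helicase, 3 were called, where 0.755% of all genes were called higher. GINS3 had an interaction of 0.70 (adjusted p = 0.281). Of the 6 subunits of the origin recognition complex, which marks where replication starts, ORC1 alone was called, at 0.92, and ORC6 had effects of -1.03 at 5 hours and -0.70 at 11 hours.

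Further along the fork, 2 of the 3 tested subunits of DNA polymerase alpha and primase were called and PRIM1 was not, at 0.85 (adjusted p = 0.107). None of the 5 subunits of the clamp loader was called, although all 5 were lower at 5 hours and their interactions ran from 0.37 to 0.71. Both assembly subunits of the histone chaperone CAF-1 were called, while its shared subunit RBBP4 was at -0.08. RRM1 and RRM2, the S phase subunits of ribonucleotide reductase, were called, and the p53-driven subunit RRM2B was at 0.01. Of the 5 subunits of condensin I, the complex that compacts chromosomes for mitosis, 2 were called. The share of all genes called higher was 0.755%, and these complexes too were chosen after the values had been seen.

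Repair and checkpoint genes of S phase were also among the rebounding lowered genes. CLSPN (claspin, an adaptor for the checkpoint kinase CHK1) went from -1.66 at 5 hours to -0.09 at 11 hours, RAD54L of homologous recombination from -1.35 to 0.03, and the RecQ helicase BLM from -1.37 to -0.23. BRCA1 (interaction 0.89), its helicase partner BRIP1 (1.2), XRCC2 (1.42), EXO1 (1.2), FANCI (0.83) and RMI2 (1.53) had the interaction called as well, and so did UNG, FEN1 and LIG1 of base excision repair and Okazaki fragment joining (0.90 to 1.04). PKMYT1 and WEE1, kinases that hold CDK1 inactive, had interactions of 1.56 and 0.95. None of these had an effect at 11 hours that passed the test, except EXO1 at -0.41 (adjusted p = 0.0625).

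ZNF367 and DTL carried the strongest called rebounds by adjusted p, together with IGFBP3. ZNF367 (chromosome 9, 96385941 to 96418329) encodes a zinc finger protein. It had 40.2 and 43.4 CPM in EtOH and 9.63 and 11.5 with dex at 5 hours, and 40.9 and 36.2 in EtOH and 31.8 and 30.6 with dex at 11 hours. The dex libraries stayed below the EtOH libraries at both times but the gap closed from -1.99 ± 0.15 (adjusted p = 2.71e-07) to a difference that missed the test (adjusted p = 0.223), with an interaction of 1.68 ± 0.21 (adjusted p = 0.00262). DTL (chromosome 1, 212035553 to 212107400), the adaptor of the ubiquitin ligase that degrades CDT1 in S phase, had 90.5 and 96.6 CPM in EtOH and 25.1 and 21.1 with dex at 5 hours, and 89.4 and 92.2 in EtOH and 62.0 and 60.0 with dex at 11 hours. DTL was thus among the 17 rebounding lowered genes with an effect still called at 11 hours, -0.57 ± 0.12 (adjusted p = 0.00463), after -2.02 ± 0.13 at 5 hours (adjusted p = 3.75e-08).

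Over the 93 genes the median effect was -1.13 at 5 hours and -0.15 at 11 hours, and the median share of the 5-hour effect that remained was 14.4%. At 11 hours both dex libraries were below both EtOH libraries in 47 of the 93 genes and above both in 8, and the arms overlapped in 38. The same was not counted over all genes tested, so these counts only describe the 93 genes. By the median the return took place in the dex arm, with a median change of 0.92 between 5 and 11 hours there and -0.06 in EtOH. Single genes can differ from this. Of the 137 genes, 8 had an unadjusted p under 0.05 between the EtOH groups in the edgeR test, as 339 of all 14567 did. In the other libraries 10 of the 93 were called lower at 3 hours (5.34% of all genes were), 87 at 7 hours (10.5%) and 77 at 9 hours (11.8%). Calls in either direction made up 12.8%, 21.7% and 25% of all genes at those times.

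**Figure D3:**
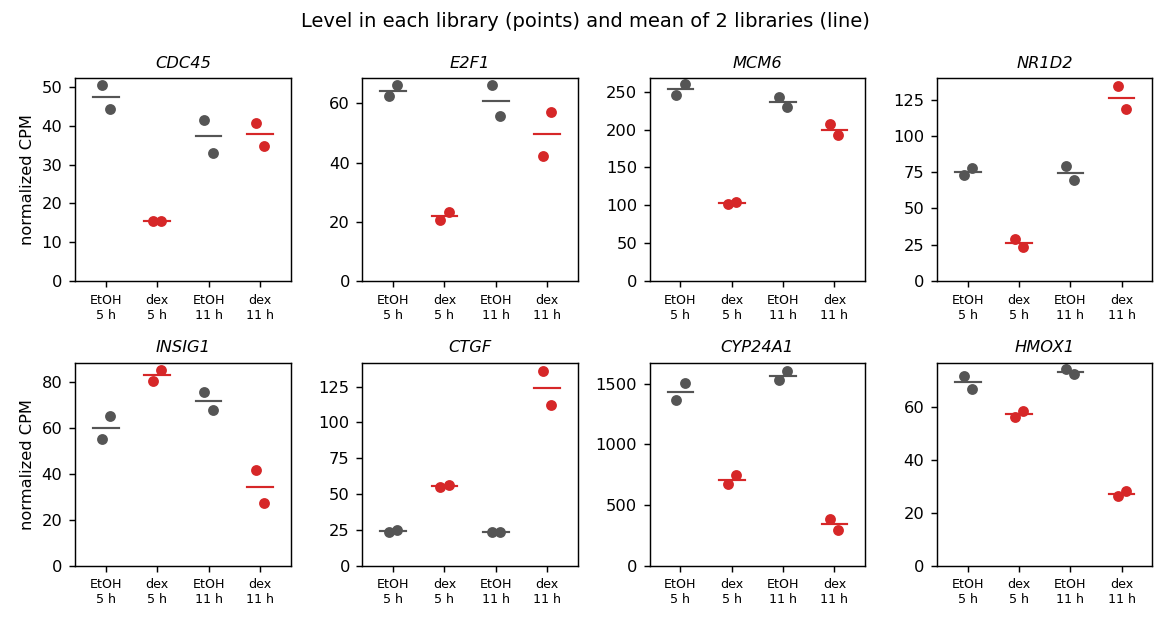
CPM in each of the 8 libraries (points) with the group mean (line) for CDC45, E2F1, MCM6, NR1D2, INSIG1, CTGF, CYP24A1 and HMOX1, in EtOH and dex at 5 and 11 hours, on linear axes from 0. CDC45 fell to 15.4 and 15.5 CPM with dex at 5 hours and had 40.9 and 34.7 at 11 hours, NR1D2 was below its EtOH libraries at 5 hours and above them at 11 hours, and CTGF, CYP24A1 and HMOX1 lay further from EtOH at 11 hours than at 5 hours.

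Regulators of the G1 to S step were fewer. On the list of G1 cyclins and CDK inhibitors, 4 of 18 members were called, all higher (E2F1, the phosphatase CDC25A, CDK2 and the pocket protein RBL1). Of all genes tested, 0.755% were called higher. The list's median was -0.27 at 5 hours and -0.15 at 11 hours with a median interaction of 0.12. E2F1 (chromosome 20, 33675683 to 33686404), an activator of replication genes, had 62.6 and 66.2 CPM in EtOH and 20.7 and 23.2 with dex at 5 hours, then 66.2 and 55.8 in EtOH and 42.1 and 57.1 with dex at 11 hours. Its arms were apart at 5 hours, at -1.55 ± 0.16, and overlapped at 11 hours, at -0.30 ± 0.15 (adjusted p = 0.289). The interaction was 1.26 ± 0.22 (adjusted p = 0.021), and 1.45 or 1.02 without the first or second dex library of 11 hours. Of the 8 E2F factors, E2F1 and E2F7, a repressor of the family, were called (1.26 and 1.17), and E2F2 at 1.26 (adjusted p = 0.147) and E2F8 at 1.11 (adjusted p = 0.111) were not.

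The genes of G2 and mitosis moved less. Of 54 members on that list 39 were lower with dex at 5 hours and 5 at 11 hours, where 9.82% and 5.08% of all genes were. The list's medians were -0.48 and -0.12, and 51 members had an interaction above 0 (7637 of all 14567 genes). The interaction was called for 3, all higher (0.755% of all genes): UBE2C, an enzyme that helps to degrade cyclin B, ANLN of the cleavage furrow and the kinesin KIF23 of the midbody. UBE2C had 75.8 and 57.3 CPM in EtOH and 41.8 and 36.0 with dex at 5 hours, and 47.3 and 49.7 in EtOH and 59.6 and 49.6 with dex at 11 hours. Its interaction was 0.94 ± 0.22 (adjusted p = 0.0743), and 1 of the 2 dex libraries of 11 hours fell within the EtOH range.

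Promoters of the rebounding lowered genes were examined because many of these genes are known E2F targets. Of the 137 genes 106 had a promoter in the RefSeq table (GRCh38.p14; 250 bases before to 50 after the start), 74 of them rebounding lowered genes. One of the E2F motifs TTTCCCGC, TTTCGCGC, TTTGCCGC and TTTGGCGC was present, on either strand, in 27 of the 74 (36.5%), against 908 of all 27305 promoters (3.33%) and 573 of the 10708 promoters of tested genes (5.35%). CCAAT on either strand was found in 40 of the 74 (54.1%) against 35.7% of all and 36.7% of tested promoters, and TTTGAA in 9 (12.2%) against 15.4% and 9.73%. The E-box CACGTG, its own reverse, was in 9 as well (12.2%) against 7.43% and 9.98%. The full GR element (AGAACA, any 3 bases, then TGTTC, on both strands) occurred in 0 of the 74 and in 4 of the 27305 (0.0146%). A match is a description of these letters and not a shown binding site. The 4 stretches below show how the motif lies in genes of this group; each holds the 120 bases before the RefSeq start and overlaps no GENCODE 29 exon of the listed genes (that of HELLS lies inside the gene's annotated span of 94501434 to 94613905, outside its exons), and capitals mark the E2F motif on either strand, which the reverse strand spells as GCGGGAAA, GCGCGAAA, GCGGCAAA or GCGCCAAA.
ZNF367, chr9:96418371-96418490, minus strand, motif starts 35 and 21 bases before the start: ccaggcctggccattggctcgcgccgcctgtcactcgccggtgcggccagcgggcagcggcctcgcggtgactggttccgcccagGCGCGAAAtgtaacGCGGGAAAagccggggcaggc
MCM6, chr2:135876444-135876563, minus strand, overlapping motifs 90 and 86 bases before the start: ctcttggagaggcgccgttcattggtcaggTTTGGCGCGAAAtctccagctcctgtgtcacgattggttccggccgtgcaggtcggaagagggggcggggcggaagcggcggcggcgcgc
CDC25A, chr3:48188418-48188537, minus strand, motif 44 bases before the start: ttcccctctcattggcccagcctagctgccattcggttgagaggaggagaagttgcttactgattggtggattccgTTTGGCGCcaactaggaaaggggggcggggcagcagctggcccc
HELLS, chr10:94545668-94545787, plus strand, motifs 76 and 8 bases before the start: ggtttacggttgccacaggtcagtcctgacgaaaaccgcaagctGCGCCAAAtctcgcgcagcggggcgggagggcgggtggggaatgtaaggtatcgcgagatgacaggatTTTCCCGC

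These promoters belonged to genes that returned to different degrees. CDC25A, the phosphatase that activates CDK2, had 18.8 and 18.9 CPM in EtOH and 8.53 and 8.03 with dex at 5 hours, and 17.6 and 14 in EtOH and 15.3 and 17.0 with dex at 11 hours, where the arms overlapped. Its interaction was 1.22 ± 0.25 (adjusted p = 0.0482). HELLS, a chromatin remodeller, kept a called effect at 11 hours, -0.38 (adjusted p = 0.0693), after -1.16 at 5 hours.

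Some rebounding lowered genes have no role in replication. IGFBP3 (chromosome 7, 45912245 to 45921874), which binds insulin-like growth factors outside the cell, had 324 and 342 CPM in EtOH and 52.3 and 55.3 with dex at 5 hours, and 318 and 311 in EtOH and 120.3 and 118 with dex at 11 hours. The dex libraries were far below EtOH at both times and higher at 11 than at 5 hours, with effects of -2.63 ± 0.11 (adjusted p = 6.96e-10) and -1.40 ± 0.10 (adjusted p = 2.08e-07) and an interaction of 1.23 ± 0.15 (adjusted p = 0.00262). The other libraries gave -0.91 at 3 hours, -2.39 at 7 hours and -2.20 at 9 hours.

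SLC2A3, a glucose transporter, had 34.8 and 34.9 CPM in EtOH and 13.5 and 11.8 with dex at 5 hours, then 33.0 and 34.4 in EtOH and 25.4 and 25.9 with dex at 11 hours, a gap that narrowed without closing (interaction 1.07 ± 0.20, adjusted p = 0.0275). The tight junction protein CLDN2 went from -2.02 to -0.89, the calcium-regulated phosphodiesterase PDE1C from -2.23 to -1.16, and the fatty acid elongase ELOVL2 from -1.29 to -0.36. SPP1 (osteopontin) and the carbonic anhydrase CA12 had effects of -0.12 and 0.12 at 11 hours that did not pass the test, after -0.97 and -0.62 at 5 hours. By size of interaction CDT1, PLEKHH2 (1.68), ZNF367, CDC45 and RAP1GAP (1.62), a brake on the small GTPase RAP1, came first among the better counted lowered genes, although PLEKHH2 and RAP1GAP had under 10 CPM in every library.

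The 15 raised genes that rebounded had a median effect of 1.75 at 5 hours and 0.51 at 11 hours, and a median of 33.2% of the effect remained. Both dex libraries stayed above both EtOH libraries at 11 hours in 13 of the 15, were below them in 1 and overlapped in 1. The same was not counted over all genes tested. Of the 15, 8 were still called at 11 hours, where 7.98% of all genes were called higher. KLF15 (chromosome 3, 126342635 to 126357442), a transcription factor of amino acid and glucose metabolism known as a direct GR target, had 15.6 and 10.5 CPM in EtOH and 43.4 and 44.1 with dex at 5 hours, then 12.3 and 14 in EtOH and 16.4 and 17.5 with dex at 11 hours. Its rise shrank from 1.75 ± 0.18 (adjusted p = 4.73e-06) to 0.36 ± 0.19 (adjusted p = 0.297), with an interaction of -1.39 ± 0.26 (adjusted p = 0.0274). The other libraries gave KLF15 effects of -0.28 at 3 hours, 0.41 at 7 hours and -1.68 at 9 hours, so its path was not smooth over the 6 times.

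Several of the other raised genes encode enzymes. AOX1, an aldehyde oxidase, had 6.64 and 7.61 CPM in EtOH and 34.1 and 31.3 with dex at 5 hours, and 8.63 and 7.12 in EtOH and 17.4 and 14.7 with dex at 11 hours, still above EtOH without overlap (interaction -1.16 ± 0.26, adjusted p = 0.0743). NNMT, which methylates nicotinamide, went from 2.14 to 1.26, the crosslinking enzyme TGM2 from 1.29 to 0.51, and IDH1 from 0.42 to -0.21, the last not called at 11 hours. PLD5, a relative of phospholipase D, had an interaction of -1.34 ± 0.26, SDSL, a relative of serine dehydratase, one of -1.07 ± 0.26, CYB5A (cytochrome b5) one of -0.82, and the galactosyltransferase B4GALT5 one of -0.70.

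HSPB1, a small heat shock protein, had 86.0 and 64.5 CPM in EtOH and 256 and 218 with dex at 5 hours, and 87.9 and 72.6 in EtOH and 123 and 143 with dex at 11 hours. Its effect fell from 1.66 ± 0.15 to 0.73 ± 0.15, still called, with an interaction of -0.93 ± 0.21 (adjusted p = 0.0739). C3, the central complement component, had 66.1 and 63.0 CPM in EtOH and 337 and 287 with dex at 5 hours, and 57.7 and 62.0 in EtOH and 142 and 183 with dex at 11 hours. The fibronectin receptor subunit ITGA5 remained strongly raised, at 2.87 and then 2.14. C11orf91 was counted at 0 and 0 in EtOH and 20 and 24 with dex at 5 hours, and at 3 and 4 in EtOH and 7 and 6 with dex at 11 hours, so its fitted fold depends on the prior count and none is given.

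Of 28 tested members of the list of GR targets 27 were higher with dex and 1 lower (ANXA1) at 5 hours, where 9.42% and 9.82% of all genes were, and 26 were higher and 1 lower at 11 hours, against 7.98% and 5.08%. The median effect was 1.99 at 5 hours and 1.96 at 11 hours, and 2 of the 28 were called for the interaction, both lower, where 0.185% of all genes were called lower. FKBP5, the chaperone that restrains GR itself, had effects of 3.76 and 3.98 with an interaction of 0.22 (adjusted p = 0.741), and TSC22D3 (GILZ) had 4.50 and 4.35 with an interaction of -0.15 (adjusted p = 0.882). Beside KLF15 the called member was MT2A, a metallothionein that binds zinc and copper, with 45.8 and 34.1 CPM in EtOH and 390.5 and 402 with dex at 5 hours, and 36.0 and 40.5 in EtOH and 211 and 212 with dex at 11 hours. MT2A belongs to a family of near-identical genes that share reads, so its interaction of -0.85 ± 0.19 (adjusted p = 0.068) is uncertain, and its relative MT1X had -0.67 (adjusted p = 0.23).

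Among the 6 reversing genes, NR1D2 (chromosome 3, 23945260 to 23980618) had the largest interaction of the 137 called genes with at least 50 counts in both libraries of a group. It encodes REV-ERB beta, a heme-binding repressor of the circadian clock. Its CPM was 72.8 and 77.8 in EtOH and 29.2 and 23.6 with dex at 5 hours, and 79.5 and 69.6 in EtOH and 134 and 118 with dex at 11 hours. Dex libraries were below EtOH at 5 hours and above it at 11 hours without overlap, with effects of -1.51 ± 0.14 (adjusted p = 1.6e-06) and 0.76 ± 0.13 (adjusted p = 0.000865) and an interaction of 2.27 ± 0.19 (adjusted p = 6.51e-05). Over the 8 fits that left out a library the interaction was 2.13 to 2.42. In the other libraries the effect was 0.46 at 1 hour, 1.49 at 3 hours, -0.59 at 7 hours and 0.03 at 9 hours. NR1D2 was the only one of 16 tested clock genes called, and the median interaction of that list was -0.14.

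The other reversing genes with a positive interaction went from lower to higher: CTDSPL, ATAD2 and RASSF2. CTDSPL (chromosome 3, 37861960 to 37984469), a phosphatase that can act on the retinoblastoma protein, had 33.8 and 36.2 CPM in EtOH and 24.8 and 24.3 with dex at 5 hours, then 34.6 and 32.5 in EtOH and 56.2 and 55.2 with dex at 11 hours. The arms were apart at both times, in opposite order, with an interaction of 1.24 ± 0.18 (adjusted p = 0.00777). ATAD2, a bromodomain ATPase of chromatin, had 199 and 210.0 CPM in EtOH and 146 and 145 with dex at 5 hours, and 219 and 199 in EtOH and 266 and 249 with dex at 11 hours (interaction 0.79 ± 0.15, adjusted p = 0.029). Its effects were -0.49 ± 0.11 (adjusted p = 0.00418) and 0.30 ± 0.11 (adjusted p = 0.0944). RASSF2, a RAS-binding tumour suppressor, went from -0.60 ± 0.14 (adjusted p = 0.00653) to 0.39 ± 0.13 (adjusted p = 0.0847) with an interaction of 0.99 ± 0.19 (adjusted p = 0.0341). For ATAD2 and RASSF2 the call at 11 hours, and with it the reversal, is lost at a threshold of 0.05.

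INSIG1 and ST3GAL5 went from higher to lower. INSIG1 (chromosome 7, 155297776 to 155310235), which holds the sterol-sensing machinery in the endoplasmic reticulum and is itself raised when sterols are short, had 55.2 and 65.4 CPM in EtOH and 80.6 and 85.5 with dex at 5 hours, and 76.0 and 68.1 in EtOH and 41.7 and 27.5 with dex at 11 hours. The arms did not overlap at either time. Its effects were 0.46 ± 0.16 (adjusted p = 0.0715) and -1.06 ± 0.17 (adjusted p = 0.000435), and the interaction of -1.52 ± 0.23 (adjusted p = 0.0106) was -1.86 or -1.25 without the first or second dex library of 11 hours. ST3GAL5, the sialyltransferase that makes the ganglioside GM3, had 115 and 117 CPM in EtOH and 150.0 and 157 with dex at 5 hours, and 117 and 100.0 in EtOH and 84.7 and 75.6 with dex at 11 hours (interaction -0.84 ± 0.16, adjusted p = 0.0353). For INSIG1 the effect was below 0 at 1, 3, 7 and 9 hours (-0.29, -0.59, -0.14 and -0.41), so 5 hours was its only time above 0. The call of INSIG1 at 5 hours, and with it the reversal, is lost at a threshold of 0.05. For ST3GAL5 the effect was -0.53, 0.31 and 0.05 at 3, 7 and 9 hours.

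INSIG1 was among the called members of the list of cholesterol and fatty acid synthesis. Of the 29 members 13 were higher with dex at 5 hours and 4 at 11 hours, where 9.42% and 7.98% of all genes were. The list's median went from 0.34 to -0.00 with a median interaction of -0.29.

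The 9 deepening genes were called at both times, with a larger effect at 11 hours. CTGF (chromosome 6, 131948176 to 131951373), a matricellular protein and a common readout of YAP activity, had 23.8 and 25.1 CPM in EtOH and 55.0 and 56.1 with dex at 5 hours, and 23.4 and 23.3 in EtOH and 136 and 112 with dex at 11 hours. Its arms were apart at both times, with effects of 1.18 ± 0.13 (adjusted p = 1.28e-05) and 2.41 ± 0.14 (adjusted p = 1.35e-08) and an interaction of 1.22 ± 0.19 (adjusted p = 0.0106). At 3, 7 and 9 hours the effect of CTGF was 2.15, 1.51 and 1.87, so the deepening from 5 to 11 hours followed a higher value at 3 hours.

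EDN2, the vasoconstrictor peptide endothelin 2, had 4.91 and 3.81 CPM in EtOH and 16.5 and 19 with dex at 5 hours, and 4.13 and 2.63 in EtOH and 46.3 and 48.9 with dex at 11 hours. The dex libraries rose well clear of EtOH at both times, with an interaction of 1.79 ± 0.31 (adjusted p = 0.021) and an effect of 3.66 at 3 hours. LRRC8A, a subunit of the volume-regulated anion channel, had an interaction of 0.93 ± 0.22 with 108 and 147 CPM in the dex libraries at 11 hours. NT5DC3 (0.72), the transcription factor GLIS3 (0.66) and the topoisomerase TOP1 (0.63) completed the 6 raised genes. All 6 were called higher at 3, 7 and 9 hours as well, as 7.44%, 11.3% and 13.1% of all genes were. The effect at 9 hours differed from that at 7 hours for 0.264% of all genes.

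Lowered further at 11 hours were CYP24A1, EREG and GPRIN3. CYP24A1 (chromosome 20, 54153449 to 54173973), the enzyme that breaks down active vitamin D, had 1363 and 1504 CPM in EtOH and 670.3 and 749 with dex at 5 hours, and 1528 and 1604 in EtOH and 388 and 295 with dex at 11 hours. The arms were apart at both times, with effects of -1.01 ± 0.13 (adjusted p = 4.93e-05) and -2.20 ± 0.14 (adjusted p = 2.64e-08), and the interaction was -1.18 ± 0.18 (adjusted p = 0.0106). EREG (epiregulin), a ligand of the EGF receptor, had 206 and 207 CPM in EtOH and 65.6 and 56.1 with dex at 5 hours, and 215 and 203 in EtOH and 40.0 and 33.9 with dex at 11 hours (interaction -0.74 ± 0.17, adjusted p = 0.0786). For CYP24A1 and EREG the effect at 3 hours was -2.73 and -2.79, beyond that at 11 hours, and for GPRIN3 it was -1.46 against -1.70 at 11 hours.

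Of the 14 late genes 7 were higher and 7 lower with dex at 11 hours, none called at 5 hours. Missing the call at 5 hours does not mean that there was no effect then. The 7 lower genes had a median effect of 0.34 at 5 hours, on the opposite side, and -1.10 at 11 hours. For the 7 higher genes the medians were -0.01 and 1.14. HMOX1 (chromosome 22, 35380361 to 35394214), the heme-degrading enzyme and a target of NRF2, had 71.8 and 67.0 CPM in EtOH and 56.1 and 58.7 with dex at 5 hours, and 74.3 and 72.5 in EtOH and 26.2 and 28.4 with dex at 11 hours. The dex libraries were lower at both times, but the effect of -0.27 ± 0.12 at 5 hours missed the test (adjusted p = 0.153) and that of -1.43 ± 0.12 at 11 hours passed it (adjusted p = 9.24e-07), with an interaction of -1.15 ± 0.17 (adjusted p = 0.00789). It was the only member called of 24 tested NRF2 targets, whose median interaction was -0.01.

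ATXN1, which encodes ataxin 1, had 11.4 and 12.2 CPM in EtOH and 17.1 and 15.2 with dex at 5 hours, and 14.6 and 16.6 in EtOH and 8.72 and 5.90 with dex at 11 hours (interaction -1.54 ± 0.29, adjusted p = 0.0261). CCNG2 (cyclin G2, a target of FOXO factors), IL4R (the interleukin 4 receptor) and IER5L had interactions of -1.12, -0.91 and -0.88. TNFAIP2, a target of NF-kappaB, had 152 and 144 CPM in EtOH and 175 and 199 with dex at 5 hours, and 137 and 143 in EtOH and 88.3 and 118 with dex at 11 hours. The small RNA gene RN7SKP176, the only one of the 137 that is not protein coding, was counted at 1 and 4 in the dex libraries of 11 hours and at 20 to 57 in the others.

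The late raised genes included INHBB, the beta B subunit of activin and inhibin, with 21.6 and 24.8 CPM in EtOH and 19.6 and 21.5 with dex at 5 hours, and 24 and 23.2 in EtOH and 43.2 and 42.5 with dex at 11 hours. Dex and EtOH lay close together at 5 hours and far apart at 11 hours, with effects of -0.18 (adjusted p = 0.506) and 0.86 ± 0.14 (adjusted p = 0.000557) and an interaction of 1.04 ± 0.20 (adjusted p = 0.0341). HEG1, a transmembrane protein of cell junctions, had an interaction of 1.06 ± 0.23, ASAP3, which acts on ARF GTPases, one of 1.74 ± 0.32 at under 12 CPM, the small GTPase RHOU one of 0.96, and the kinase MAPKAPK2, which acts below p38, one of 0.74. FBRSL1 (1.17) and NEURL1B (1.23) were the remaining members. INHBB and HEG1 had effects of 1.10 and 1.15 at 3 hours, so "late" describes the pair of 5 and 11 hours and not the whole series of times.

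**Figure D4:**
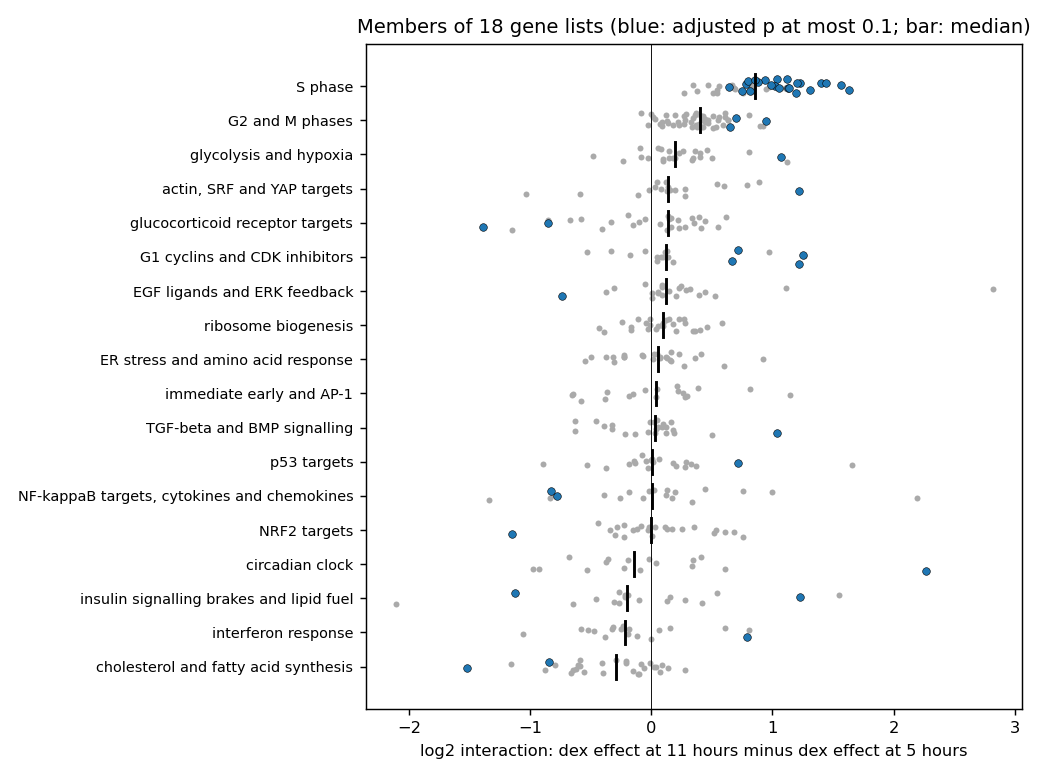
Interaction (dex effect at 11 hours minus dex effect at 5 hours, log2) of each tested member of 18 gene lists; blue points are called members, grey points are not, and the bar is the list's median. The S phase list lies above 0 in all 42 members, with a median of 0.85, while the list of GR targets is centred at 0.14 and that of cholesterol and fatty acid synthesis at -0.29.

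The lists of other pathways each held from 0 to 2 called genes, where 0.94% of all tested genes were called. On the list of NF-kappaB targets, cytokines and chemokines 2 of 20 tested members were called, C3 and TNFAIP2, both lower, with a median interaction of 0.00. Of 22 members for EGF ligands and ERK feedback EREG alone was called (median 0.12), of 24 for TGF-beta and BMP signalling INHBB alone (0.03), and of 19 actin, SRF and YAP targets CTGF alone (0.14). The list of glycolysis and hypoxia (25 tested, median 0.20) had SLC2A3 called, that of p53 targets (21 tested, 0.01) had AEN, a nuclease induced by p53, at 0.72, and that of the interferon response (18 tested, -0.22) had OAS3, an antiviral enzyme, at 0.79. IGFBP3 and CCNG2 were called, in opposite directions, among 18 genes of insulin signalling brakes and lipid fuel (-0.20). None of the 18 immediate early and AP-1 genes (0.04), 26 genes of ER stress and the amino acid response (0.06) or 27 of ribosome biogenesis (0.10) was called. In all, 46 of the 137 genes were on a list and 91 on none.

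Markers of the cell line were checked in the same 8 libraries. The summed CPM (here by library total alone) of 6 epithelial markers was 5240 to 5860 in EtOH and 11600.3 to 12177 with dex at 5 hours, and 5009.8 to 5228 in EtOH and 8236 to 10178 with dex at 11 hours. Nearly all of it came from the keratins KRT7, KRT8 and KRT18, which reached 1792, 5007 and 5437 CPM. EPCAM, KRT19 and CDH1 had at most 10.9, 17.9 and 59.4 CPM. Enzymes abundant in A549 summed to 17464 to 24186 in every group. Markers of alveolar type 2 cells summed to at most 2.04 CPM (2 of 6 at 0 in all libraries), those of endothelial cells to at most 0.861 and those of blood cells to at most 3.83 (3 of 6 at 0), so the defining markers of these cells were at or near 0. Fibroblast markers summed to 17.4 to 20.5 in EtOH and 7.91 to 11.0 with dex at 5 hours, and to 20.2 to 22.7 in EtOH and 13.7 to 19.7 with dex at 11 hours, with 1 of 6 at 0. That sum was mostly COL1A1, at 4.94 to 18.9 CPM over the 8 libraries, while each other member had at most 2.18. None of these markers was among the 137 genes, and the part of the epithelial sum in the results above was not tested.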

How the data were processed

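Poly-A RNA of A549 cells was sequenced as stranded 50-base single-end reads. The authors aligned reads to GENCODE 19 transcripts with Bowtie 0.12.9 and deposited raw counts per transcript from samtools 1.3.1 idxstats; how reads matching several transcripts were placed, and whether strand was used in counting, is not given in the sources used here. Here the deposited counts were summed by gene: 110262 of 119207 transcripts joined to a gene of GENCODE 29 (GRCh38), 8945 did not, and 94.08% of counts were kept. Groups came from the duration and treatment labels. One edgeR 4.0.16 quasi-likelihood fit (R 4.3.3, TMM, filterByExpr) covered the 8 libraries of 5 and 11 hours, with no covariate and a biological coefficient of variation of 10.7%. That coefficient was 8.27% over the libraries of 5 hours alone and 12.65% over those of 11 hours alone. A second fit covered 1, 3, 7 and 9 hours (15157 genes). CPM values use total counts per library scaled by the TMM factors, and sums of cell markers use the totals alone. Scripts were tested on simulated data, and figures were drawn with matplotlib 3.10.9 in Python 3.11.15. Counts at this depth carry counting error only as far as the 2 libraries of a group show it.

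The members, gene lists and markers were chosen with earlier results of these data known. Named genes were the 5 largest interactions in each class and direction and up to 8 reversing genes (at least 50 counts in both libraries of a group, same sign in both replicate numbers), up to 4 members of each list, and called GR targets; others, complexes included, were chosen after their values were seen. Values of some genes are not reported here. Alternatives were DESeq2 1.42.0, its size factors, 2 other count filters, 1 fit over 24 libraries, a replicate block, a threshold of 0.05, single transcripts, and each library left out.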

Additional observations from a re-analysis of the deposited data

Results flagged for a closer look

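The count of 137 genes stands here because the dex effect differed between 2 time points by a test of the difference itself, the edgeR interaction. So do the genes whose effect was called in opposite directions at 5 and 11 hours: NR1D2 (interaction 2.27), CTDSPL (1.24), RASSF2 (0.99) and ATAD2 (0.79) turned from lower to higher, and INSIG1 (-1.52) and ST3GAL5 (-0.84) from higher to lower. The calls of ATAD2 and RASSF2 at 11 hours had adjusted p of 0.0944 and 0.0847, and that of INSIG1 at 5 hours had 0.0715. The cause of these differences was not tested.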

How the results depend on the processing

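Under each alternative, each left-out library included, the interaction kept its sign in all 137 genes, except that with at least 10 counts in every library 135 of them were tested. The genes were chosen by this interaction and the alternatives drew it from the same libraries, so a kept sign is no separate support. The threshold of 0.05 used the main fit itself. The number of genes called, 137, became 362 with no filter on low counts (137 shared), 446 in 1 fit over 24 libraries (135 shared), 81 with the replicate block (79 shared), 68 at an adjusted p of at most 0.05, and 47 by the most counted transcript of each gene. DESeq2 called 170 (131 shared). Between 5 and 11 hours in dex libraries the 691 genes became 1153 in 1 fit over 24 libraries, 386 with the replicate block within time, 433 at 0.05 and 385 by the most counted transcript. Leaving out each library gave 5 to 1454 genes for the interaction, 1752 to 4089 at 5 hours, 1027 to 3995 at 11 hours, 202 to 2436 between the dex groups and 0 between the EtOH groups, a lone sample being assumed to vary like the other groups. Same-numbered libraries of different groups had correlations of -0.18 to 0.02 in their deviations. Such values cannot exclude that libraries were handled in pairs, and the paper describes the ethanol control as paired. The main fit used no pairing, and the replicate block within time called 193 genes (137 shared). Uncalled interactions near 0 changed sign: BHLHE40 to 0.0030 with no filter, and by transcript FOSL2 to -0.0069, HSP90B1 to -0.036, NPM1 to -0.043 and SLC7A5 to -0.00021. With each library left out others ranged across 0: CCND1 -0.046 to 0.13, ERRFI1 -0.37 to 0.20, FADS1 -0.12 to 0.16, FOSL2 -0.017 to 0.082, PMEPA1 -0.034 to 0.11, BHLHE40 -0.050 to 0.014, HSP90B1 -0.038 to 0.060, NPM1 -0.12 to 0.17, CDK6 -0.042 to 0.30, GAPDH -0.039 to 0.36, SLC7A5 -0.10 to 0.13, ACTG1 -0.035 to 0.19, CXCL5 -0.015 to 0.42 and TNFRSF10B -0.0014 to 0.12. The causes were not tested. With 2 libraries a group, smaller differences between 5 and 11 hours were not detectable.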

Other observations

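Between the 2 dex groups, a contrast without the EtOH libraries, 10 of 29 genes of cholesterol and fatty acid synthesis fell from 5 to 11 hours and none rose, where 1.52% of all genes fell and 3.22% rose. They included INSIG1 (-1.26), MVK (-1.35), SC5D (-0.63), MSMO1 (-0.60), CYP51A1 (-0.53), SQLE (-0.52), which makes squalene epoxide, and IDI1 (-0.42). Between the EtOH groups no gene was called. Of 19 actin, SRF and YAP targets 5 rose between the dex groups (CTGF by 1.16, CYR61 by 0.99, ANKRD1 by 0.79, THBS1 by 0.52 and AXL by 0.46) and 1 fell (CALD1), where 3.22% of all genes rose and 1.52% fell.

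In the libraries that the interaction did not use, the dex effect at 9 hours differed from that at 7 hours for 40 of 15157 genes (0.264%), 16 higher and 24 lower, with 2088 at an unadjusted p under 0.05.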
